A study of Homo sapiens with 6 samples.

Results

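Protein disulfide isomerases (PDIs) and endoplasmic reticulum (ER) oxidases, which together form the disulfide bonds of secreted and membrane proteins, were followed as 10 genes in K562 cells with and without hyperoside. The genes P4HB, PDIA3, PDIA4, PDIA5, PDIA6, ERP44, TXNDC5, ERO1A, ERO1B and PRDX4 were chosen by name for their function, with earlier results of these data known. All 10 were found among the 24960 genes of the count table. K562 is an established human chronic myeloid leukemia (CML) cell line with erythroid features. RNA was sequenced in 3 libraries of control cells and 3 libraries of cells given 2 mM hyperoside. The aim was to ask how this plant flavonol glycoside shapes gene expression in CML cells. Whether the control cells received a vehicle is not given in the sources used here. No allele, transgene or further agent separates the groups in the labels, and how long cells were kept with hyperoside before sequencing is not given in the sources used here. Libraries of a group are labelled as replicates, without a statement that they came from separate cultures, so p-values measure only the spread between these libraries.

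Disulfide bonds form in the ER lumen when PDIs, proteins built of thioredoxin-like domains, pass a disulfide to a folding client and become reduced. The flavoproteins ERO1A and ERO1B reoxidize the PDIs with molecular oxygen and release hydrogen peroxide. PRDX4, the peroxiredoxin of the ER lumen, uses that peroxide to oxidize further PDI, and ERP44 holds ERO1 and other clients without a retention signal of their own in the early secretory pathway. Many of these genes are induced by the unfolded protein response (UPR), through the ER stress response element (ERSE) that the factors ATF6 and XBP1 recognize.

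The promoters of 4 of the genes are shown first, because ERO1A and ERO1B moved in opposite directions and PDIA4 and PDIA6 are classical UPR genes. Sequences are the 250 bases before the RefSeq start on GRCh38.p14, 5′ to 3′ on the strand of the gene, and capitals mark every match to the motifs described next. ERO1B lies at chr1:236281959-236282208 (minus strand), ERO1A at chr14:52695559-52695808 (minus strand), PDIA6 at chr2:10812786-10813035 (minus strand, the downstream of its 2 RefSeq starts) and PDIA4 at chr7:149028491-149028740 (minus strand, the upstream of its 2 starts).
ERO1B: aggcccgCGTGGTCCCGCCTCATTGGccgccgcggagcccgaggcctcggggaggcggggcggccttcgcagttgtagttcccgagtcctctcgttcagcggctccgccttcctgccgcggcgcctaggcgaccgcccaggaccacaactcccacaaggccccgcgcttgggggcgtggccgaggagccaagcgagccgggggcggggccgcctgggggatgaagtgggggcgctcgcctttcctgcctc
ERO1A: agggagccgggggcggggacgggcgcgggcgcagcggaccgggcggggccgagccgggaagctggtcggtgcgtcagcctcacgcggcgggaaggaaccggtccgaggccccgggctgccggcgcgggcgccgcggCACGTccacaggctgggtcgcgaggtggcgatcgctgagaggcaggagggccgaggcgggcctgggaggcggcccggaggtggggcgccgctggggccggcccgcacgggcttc
PDIA6: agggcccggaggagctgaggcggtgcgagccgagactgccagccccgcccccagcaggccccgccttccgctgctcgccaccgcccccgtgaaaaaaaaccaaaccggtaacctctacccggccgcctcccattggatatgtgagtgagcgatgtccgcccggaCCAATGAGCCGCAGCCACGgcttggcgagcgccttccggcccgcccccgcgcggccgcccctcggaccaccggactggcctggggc
PDIA4: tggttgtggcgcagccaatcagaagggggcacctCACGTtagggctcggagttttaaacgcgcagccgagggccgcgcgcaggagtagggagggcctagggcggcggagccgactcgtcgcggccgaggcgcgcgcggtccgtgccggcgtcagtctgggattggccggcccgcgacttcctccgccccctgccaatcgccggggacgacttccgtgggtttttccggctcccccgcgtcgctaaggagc

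Both strands of these windows were searched for 6 motifs, in which N is any base. The ERSE, which is CCAAT and CCACG with 9 bases of any kind between them, was present in 0.074% of 35116 RefSeq windows of the same length, and 2 of the 12 windows of these genes held it. In ERO1B it lay on the opposite strand, 243 to 225 bases before the start, and in PDIA6 on the strand of the gene, 86 to 68 bases before the downstream start. G and C made up 74.8% of that ERO1B window and 72.4% of that PDIA6 window, against a median of 58.0% over all windows. The shares over all windows are therefore not matched for base composition. ERSE-II, which is ATTGG and CCACG with 1 base of any kind between them (0.0513% of all windows), and the C/EBP-ATF element TGATGNAA (3.14%) were found in 0 of the 12. The UPR element TGACGTGG (0.612%) was found at the downstream start of TXNDC5, where it overlaps a match to the antioxidant response element TGACNNNGC (10.9%) and to the hypoxia core ACGTG (18.5%). That antioxidant motif also matched in PDIA5. The window of ERO1A held a single match, the reverse complement of the hypoxia core 114 to 110 bases before the start, and the same short core matched in PDIA4, PDIA5, ERP44 and PRDX4. P4HB held 0 matches, and PDIA3 was not among the windows, which covered 9 of the 10 genes. A match is a string of letters and not a measured binding site.

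Each library held 35613283 to 36754725 counts on genes, and the 10 genes held 0.259 to 0.274% of them in control libraries and 0.199 to 0.207% under hyperoside. In such bulk RNA fewer cells of a kind and less RNA per cell cannot be told apart. On the second principal component control replicate 1 lay at 16.9 and control replicate 3 at -13.8, with the other libraries at -4.65 to 1.58. ERO1A, ERO1B, PDIA4, PDIA5, PDIA6, PDIA3 and PRDX4 are also given without control replicate 1. Without control replicate 3 the log2 fold changes (hyperoside against control, edgeR) of ERO1A, ERO1B, PDIA4 and PRDX4 were 0.72, -1.305, -0.98 and -0.42. Those of PDIA5, PDIA6 and PDIA3 were -0.91, -0.675 and -0.64. The 8 markers listed for K562 (globin and erythroid genes) had more than 10 counts in every library, and their summed level was 5036 to 6192 CPM (counts per library, scaled to a common total) in control libraries and 3758 to 4529 under hyperoside. The list went both ways: the globin genes HBE1, HBG1 and HBG2, which make up most of the sum, were lower under hyperoside, while KLF1 had a mean of 22.6 FPKM in control libraries and 45.6 under hyperoside, HBZ 395 and 428, GATA1 94.3 and 93.98, and TAL1 19.6 and 20.9. The part of this shift in the results was not tested. Among markers of other cells CD2 (T cell) and MS4A1 (B cell) had at most 2 counts and 1 count in a library, GP1BA (platelet lineage) had 0 counts in all libraries, and EPCAM (epithelial) had 2686 to 2961. The summed T cell list, mostly CD3D, was 29.03 to 35.14 on the same scale in control libraries and 39.24 to 44.28 under hyperoside, and its part in the results was not tested.

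The genes are scattered over the genome, each on a chromosome of its own. In RefSeq (GRCh38.p14) ERO1A spans chromosome 14 from 52639915 to 52695558, ERO1B chromosome 1 from 236215101 to 236281958, PDIA4 chromosome 7 from 149003051 to 149028505, PDIA6 chromosome 2 from 10783391 to 10837712 and P4HB chromosome 17 from 81843166 to 81860535. PDIA3 lies on chromosome 15, PDIA5 on chromosome 3, TXNDC5 on chromosome 6, ERP44 on chromosome 9 and PRDX4 on the X chromosome.

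The levels of the genes spanned a wide range. FPKM values, in which counts are divided by gene length and library total, allow genes to be compared with one another. In the control group P4HB was highest, at 300.3 ± 4.41 FPKM (SD, n = 3), which is rank 172 of all listed genes. PDIA4 followed at 165 ± 11.7, PDIA3 at 159 ± 6.41 and PDIA6 at 144 ± 5.25 FPKM. The ranges of PDIA4 and PDIA3 overlapped, while every other neighbouring pair in this order was separate. PRDX4 stood at 78.6 ± 9.07, PDIA5 at 34.3 ± 3.61, ERP44 at 29.1 ± 1.03 and ERO1A at 17.6 ± 1.82 FPKM. ERO1B, at 3.32 ± 0.56, and TXNDC5, at 0.58 ± 0.13 FPKM, closed the order. In the hyperoside group P4HB was again highest at 263 ± 11.3 FPKM, and PDIA4 came after PDIA3 and PDIA6, at 90.4 ± 2.44 against 109 ± 0.793 and 96.3 ± 2.43. ERO1A moved past ERP44 and PDIA5, at 29.4 ± 2.55 against 24.8 ± 1.24 and 20.2 ± 0.116 FPKM. Under hyperoside no neighbouring pair overlapped.

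**Figure D1:**
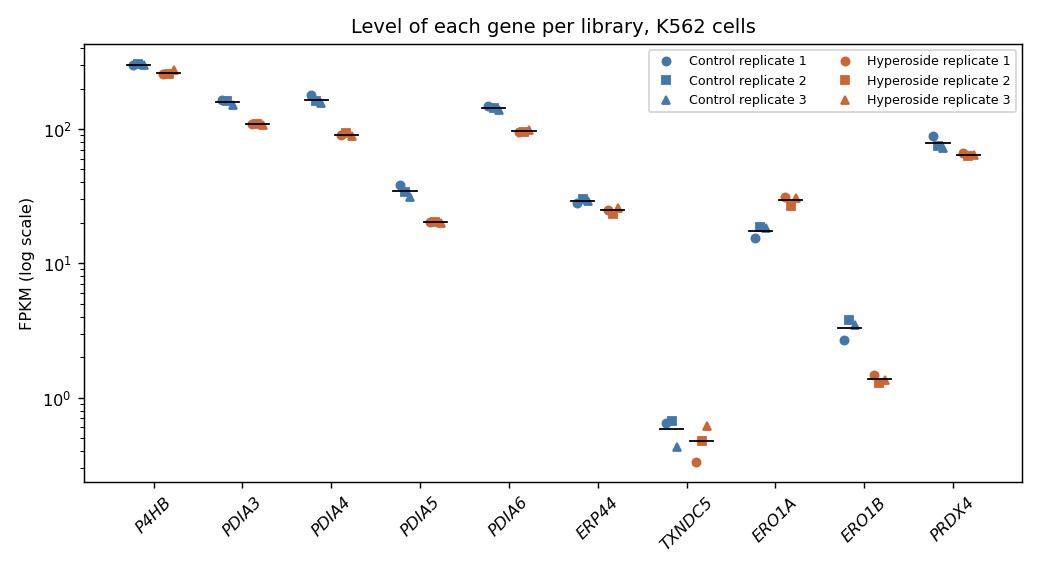
FPKM on a log axis for the 10 genes in each of the 6 libraries, with control libraries in blue, hyperoside libraries in orange, a marker shape for each replicate number and a black line at each group mean. P4HB is highest in both groups (300.3 and 263 FPKM), ERO1A is the gene whose hyperoside libraries lie above its control libraries, and TXNDC5 lies near the bottom with overlapping groups.

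Of the 10 genes, all of which passed the filter on low counts, 8 were lower and 1 was higher in the hyperoside group at an adjusted p under 0.05, in edgeR's quasi-likelihood test adjusted by the Benjamini-Hochberg method over 15095 tested genes. Over all genes tested, 23.2% were called lower and 22.1% higher (45.3% in either direction). The 10 genes had a median of -0.47 on the log2 fold change scale, against 0.00 over all genes tested. With the further threshold of a fold change above 2 that defines differentially expressed genes (DEGs) in this study, ERO1B alone passed, against 3.76% of all genes called as lower DEGs and 6.43% as higher DEGs (10.2% together). The control and hyperoside libraries were fully separate in normalized counts for 9 of the 10 genes, 8 lower and 1 higher, as they were for 54.4% of all tested genes (27.3% lower and 27.1% higher). The calls of 8 lower and 1 higher were also obtained without control replicate 1.

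**Figure D2:**
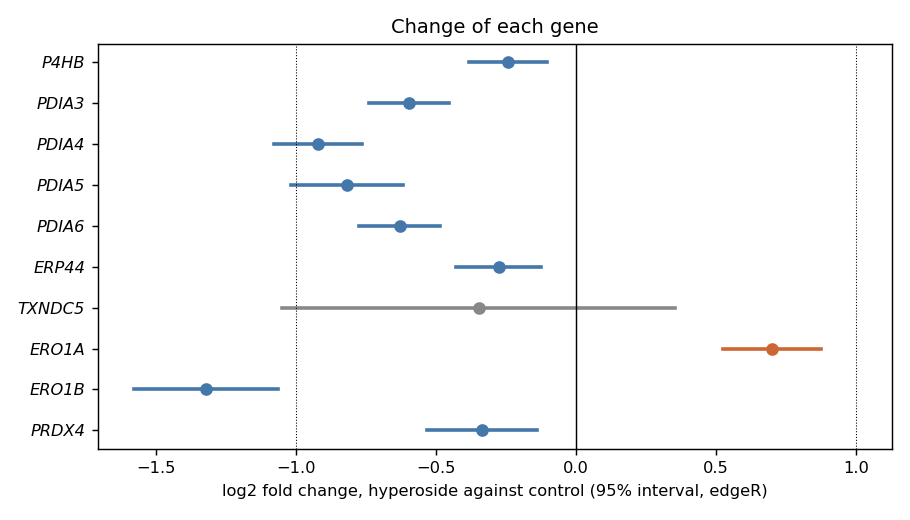
Log2 fold change of each gene in the hyperoside group against the control group (points) with its 95% interval from edgeR (bars). Blue marks genes called lower, orange the gene called higher and grey TXNDC5, which was not called, and dotted lines mark a fold change of 2. Only the interval of ERO1B lies wholly beyond a dotted line, from -1.58 to -1.06.

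The ERO1 oxidases moved in opposite directions. ERO1A, the more abundant paralog, whose gene is known to respond to hypoxia and to the ER stress factor CHOP, rose from 97.6 ± 8.10 to 158 ± 13.7 normalized CPM (counts scaled to a common effective library size, SD, n = 3 each). ERO1A had 88.4, 104 and 100.7 CPM in control replicates 1, 2 and 3 and 166, 143 and 166 in hyperoside replicates 1, 2 and 3. Every hyperoside library lay above every control library, and the lowest value was in control replicate 1. Values of further genes follow the same order of replicates. Its log2 fold change was 0.70 (standard error 0.08, 95% interval 0.52 to 0.87, edgeR adjusted p = 2.81e-06), and 0.63 without control replicate 1. In the GENCODE 29 annotation 10.9% of the exon bases of ERO1A are shared with an antisense gene, and the use of strand in the counting is not given in the sources used here. ERO1B, known for its role in insulin-producing cells, fell from 27.7 ± 4.19 to 11.1 ± 0.753 CPM, 40.02% of the control mean. ERO1B had 23.2, 31.5 and 28.4 CPM in the controls, against 11.9, 10.3 and 11.1 under hyperoside. The groups did not overlap, and control replicate 1 was again the lowest control library. The log2 fold change was -1.32 (standard error 0.12, 95% interval -1.58 to -1.06, edgeR adjusted p = 1.48e-07), and -1.43 without control replicate 1. No exon base of ERO1B is shared with another gene in GENCODE 29.

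The ratio of ERO1A to ERO1B within a library needs no scaling between libraries. On FPKM it was 5.72, 4.94 and 5.32 in the controls, against 21.1, 20.7 and 22.5 under hyperoside. Every hyperoside library lay above every control library, and the ratio was 4.03-fold higher under hyperoside. The mean log2 ratio was 2.41 ± 0.11 in control libraries and 4.42 ± 0.06 under hyperoside (SD, n = 3 each), a difference of 2.01. The exact permutation test, two-sided, gave p = 0.1, and 3 libraries against 3 allow no smaller p (adjusted p = 0.143 over 10 ratios). Of the FPKM of both oxidases ERO1A made up 84.2% ± 0.97 in control libraries and 95.5% ± 0.19 under hyperoside, a share that was not tested. A further ratio, chosen after the values were seen and not tested, set both oxidases against the 7 PDI family genes (P4HB, PDIA3, PDIA4, PDIA5, PDIA6, ERP44 and TXNDC5). The oxidases summed to 2.12, 2.70 and 2.73 FPKM per 100 FPKM of these genes in the controls and to 5.48, 4.66 and 5.18 under hyperoside. Their sum went from 20.9 ± 2.37 to 30.8 ± 2.64 FPKM, and that of the 7 genes from 832 ± 26.3 to 604 ± 12.1 FPKM.

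**Figure D3:**
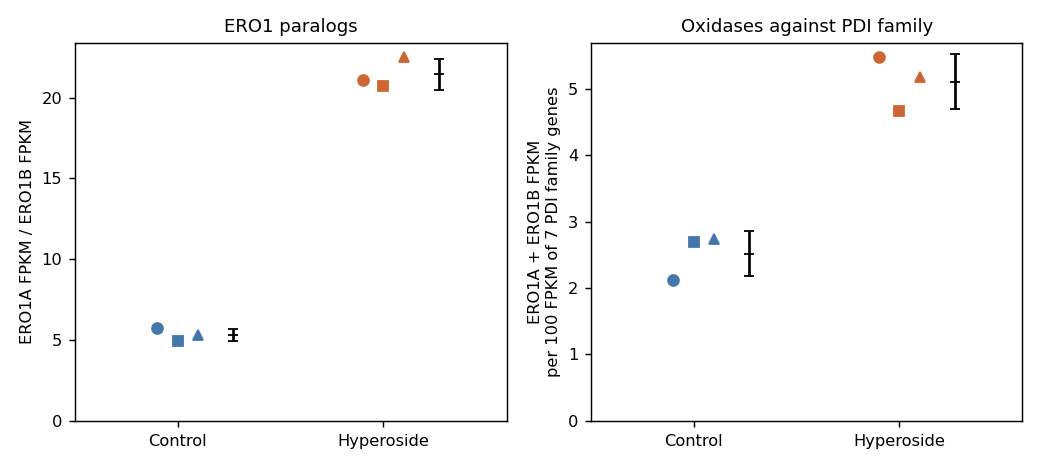
Left, the FPKM ratio of ERO1A to ERO1B, and right, the summed FPKM of ERO1A and ERO1B per 100 FPKM of 7 PDI family genes, in each library (circle, square and triangle for replicates 1, 2 and 3), with the mean and SD of each group in black. Control libraries lie at 4.94 to 5.72 on the left and 2.12 to 2.73 on the right, and hyperoside libraries at 20.7 to 22.5 and 4.66 to 5.48.

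Among the PDI enzymes, PDIA4 (ERp72), an isomerase induced by ER stress, had the lowest log2 fold change, with an interval (-1.08 to -0.76) that overlapped the one of PDIA5 (-1.02 to -0.62). PDIA4 had 521, 455 and 435 CPM in control replicates 1, 2 and 3 and 245, 256 and 244 in hyperoside replicates 1, 2 and 3. The hyperoside libraries were close together and well below the control libraries, of which replicate 1 was the highest. The means were 470.3 ± 45.2 and 248 ± 6.24 CPM. On the log2 scale the fold change of PDIA4 was -0.92 (standard error 0.08, edgeR adjusted p = 3.35e-08), and -0.84 without control replicate 1. PDIA5 (PDIR), a less abundant isomerase, had 73.5, 63.3 and 56.8 CPM in the controls, against 36.5, 36.7 and 36.7 under hyperoside. Its log2 fold change was -0.82 (standard error 0.10, edgeR adjusted p = 2.00e-06), and -0.71 without control replicate 1, which was the highest library of PDIA5. The hyperoside libraries differed from one another by less than the control libraries did. The coefficient of variation of PDIA5 was 13.0% among control libraries and 0.271% under hyperoside. With 1324 to 1346 counts in the hyperoside libraries, counting error alone would give more than 0.271%. The closeness of these 3 libraries is therefore no measure of a smaller spread under hyperoside. PDIA6 (P5), which binds the chaperone BiP, had 492, 462 and 436 CPM in the controls, against 293, 294 and 310.4 under hyperoside. PDIA3 (ERp57), the isomerase that works with calnexin and calreticulin on glycoproteins, had 631, 597 and 556 CPM in the controls, against 392, 396 and 394 under hyperoside. In both genes the groups were separate and control replicate 1 was the highest library. Log2 fold changes were -0.63 for PDIA6 (standard error 0.07, edgeR adjusted p = 1.05e-06) and -0.60 for PDIA3 (standard error 0.07, edgeR adjusted p = 1.58e-06). Without control replicate 1 they were -0.58 and -0.55. In GENCODE 29 the opposite strand carries exons of other genes over 29.7% of the exon bases of PDIA6 and 21.5% of those of PDIA3.

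P4HB (PDI itself), which is also a subunit of collagen prolyl 4-hydroxylase and of the microsomal triglyceride transfer protein, fell to 84.5% of its control mean. P4HB had 801, 795 and 763 CPM in the controls, against 644, 646 and 703 under hyperoside. The groups did not overlap, and hyperoside replicate 3 came nearest to the controls. The log2 fold change was -0.24 (standard error 0.07, 95% interval -0.38 to -0.10, edgeR adjusted p = 0.00592), and exons of a gene on the opposite strand cover 20.3% of its exon bases. ERP44, the retention factor, had 141, 146 and 139 CPM in the controls, against 118, 111 and 124 under hyperoside. Its log2 fold change of -0.28 (standard error 0.07, edgeR adjusted p = 0.00456) also came from groups that did not overlap. PRDX4 had 88.8, 72.8 and 68.3 CPM in the controls, against 62.1, 59.6 and 60.4 under hyperoside. Control replicate 1 stood well above the other libraries, and the groups did not overlap. The log2 fold change of PRDX4 was -0.34 (standard error 0.09, edgeR adjusted p = 0.00678), and -0.21 without control replicate 1 (edgeR adjusted p = 0.0164), which moves its value by more than 1.5 times.

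Whether the isomerases changed unequally was examined with the log2 FPKM ratio of each gene to P4HB in the same library. PDIA4, PDIA5, PDIA6 and PDIA3 were lower relative to P4HB under hyperoside, with differences of -0.67, -0.57, -0.39 and -0.35 between the hyperoside and control means and no overlap between groups. PDIA4 to P4HB, for example, was -0.87 ± 0.11 in control libraries and -1.54 ± 0.10 under hyperoside (SD, n = 3 each), that is 0.627 of the control ratio. For each of these 4 ratios p was 0.1 in the exact permutation test, the floor of this design, and 0.143 after adjustment over 10 ratios. ERO1A to P4HB differed by 0.94 and ERO1B to P4HB by -1.07, again without overlap and with the same p of 0.1 in the exact permutation test. ERP44 to P4HB differed by -0.03 (exact permutation p = 0.5), PRDX4 to P4HB by -0.08 (exact permutation p = 0.7) and TXNDC5 to P4HB by -0.12 (exact permutation p = 0.7), and the groups overlapped in all 3. P4HB made up 36.1% ± 1.16 of the summed FPKM of the 7 PDI family genes in control libraries and 43.5% ± 1.0 under hyperoside, and PDIA4 made up 19.8% ± 0.87 and 14.98% ± 0.65.

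TXNDC5 (ERp46), an isomerase with several thioredoxin-like domains, had far fewer counts than the other genes. It was read 76, 76 and 49 times in the controls, against 38, 55 and 70 under hyperoside, and the groups overlapped. The log2 fold change was -0.35 (standard error 0.33, 95% interval -1.05 to 0.35, edgeR adjusted p = 0.42), which did not pass the test. It was -0.14 without hyperoside replicate 1, -0.57 without hyperoside replicate 3 and -0.54 without control replicate 3, and passed in none of these. TXNDC5 spans chromosome 6 from 7881517 to 7910788 (RefSeq, GRCh38.p14). In GENCODE 29 the readthrough gene BLOC1S5-TXNDC5 shares 82.3% of the exon bases of TXNDC5 on the same strand. The table lists the readthrough gene at 0 counts in all 6 libraries, which allows up to 3 counts in each, and BLOC1S5, its other parent gene, at 0 counts in 5 libraries and 5 in hyperoside replicate 3. HTSeq, which the submitters list for counting, by default sets aside reads that overlap more than a single gene, and whether this was applied here and lowered the counts of TXNDC5 was not tested. The low level of TXNDC5 is therefore uncertain. No other gene of the 10 shares exon bases with a gene on its own strand in that annotation.

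Of 16 further PDI family genes, 9 were tested, of which 2 were called lower and 1 higher, with a median log2 fold change of -0.01. The share called lower was 22.2%, near the 23.2% of all genes tested. That 23.2%, and the 22.1% of all genes called higher, are also the shares to set beside the lists that follow. TXNDC12 (ERp18), a small thioredoxin-like protein of the ER, went from 118 ± 3.46 to 89.7 ± 2.38 CPM (log2 fold change -0.40, edgeR adjusted p = 2.02e-04), and ERP29 from 202 ± 15.04 to 158 ± 10.7 CPM (-0.35, adjusted p = 0.00116). TXNDC16, another thioredoxin-domain protein, rose from 21.5 ± 2.74 to 27.5 ± 1.93 CPM (log2 fold change 0.36, edgeR adjusted p = 0.0123), and lost this call without hyperoside replicate 1 (adjusted p = 0.0736). TMX4, a membrane-bound family member, had a log2 fold change of 0.17 (edgeR adjusted p = 0.108). Without control replicate 1, 2 or 3 a second gene of this list was called higher. All 5 peroxiredoxins other than PRDX4, which act mostly outside the ER, were called lower, with a median of -0.25 beside -0.34 for PRDX4. The smallest p-values were those of PRDX1 (-0.39, edgeR adjusted p = 2.06e-04) and PRDX5 (-0.30, edgeR adjusted p = 0.00487), and 3 of the 5 were called without hyperoside replicate 1 or without hyperoside replicate 3. The replicate block, library totals only and leaving out control replicate 2 gave 4 of the 5.

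Other enzymes of ER thiol chemistry changed in both directions. Of 11 listed, 10 were tested, with 4 called lower and 2 higher and a median log2 fold change of -0.13. QSOX2, a sulfhydryl oxidase that can form disulfides without PDI, fell from 66.3 ± 4.5 to 32.7 ± 3.43 CPM (log2 fold change -1.02, standard error 0.09, edgeR adjusted p = 1.41e-07). VKORC1, the vitamin K epoxide reductase, had a log2 fold change of -0.56 (edgeR adjusted p = 7.93e-05). H6PD, which makes NADPH in the ER lumen, rose from 11.7 ± 3.03 to 21.2 ± 2.34 CPM (log2 fold change 0.85, edgeR adjusted p = 2.09e-04), and SELENON rose by 0.42 on the log2 scale (edgeR adjusted p = 2.66e-04).

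Chaperones and clients that work with these proteins made up a list of 14 partners, of which 13 were tested. The test called 6 of them lower and 2 of them higher, and their median was -0.08 on the log2 scale. The BiP gene HSPA5, whose product binds PDIA6, had a log2 fold change of -2.42 (edgeR adjusted p = 1.98e-12), and HSP90B1 of -2.08 (edgeR adjusted p = 3.21e-12). CALR, the lectin chaperone that recruits PDIA3, fell from 2422 ± 238 to 893 ± 33.3 CPM (log2 fold change -1.44, standard error 0.07, edgeR adjusted p = 1.32e-10). The other lectin partner of PDIA3, CANX, named after its values were seen, had 1275 ± 80.1 and 1207 ± 17.6 CPM (log2 fold change -0.08, edgeR adjusted p = 0.343), which did not pass the test. DNAJB11, a cochaperone of BiP, fell by 1.02 on the log2 scale (edgeR adjusted p = 5.22e-09). SUMF1, a client retained by ERP44, rose from 4.41 ± 0.614 to 9.52 ± 0.466 CPM (log2 fold change 1.11, edgeR adjusted p = 2.42e-05). TAPBP, the tapasin that binds PDIA3 in the peptide loading complex, rose by 0.25 (edgeR adjusted p = 0.0102), and lost its call without control replicate 2 (adjusted p = 0.0512), which left 1 gene called higher. Of the catalytic subunits that pair with P4HB in collagen prolyl 4-hydroxylase, named after their values were seen, P4HA1 had 264 ± 20.6 and 269.98 ± 39.1 CPM (log2 fold change 0.03, edgeR adjusted p = 0.803). P4HA2 fell from 78.0 ± 4.23 to 60.9 ± 6.41 CPM (log2 fold change -0.36, edgeR adjusted p = 0.00296), and P4HA3 had at most 6 counts in a library and was not tested.

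Of 7 UPR regulators, all tested, 5 were called lower, and the list's median was -0.46 on the log2 scale. The count was 4 in 10 of the 15 alternatives, among them the replicate block and each library left out other than control replicate 1. DDIT3, which encodes CHOP, fell from 261 ± 22.0 to 106 ± 9.27 CPM (log2 fold change -1.30, standard error 0.08, edgeR adjusted p = 2.11e-09). ERN1, the gene of the sensor IRE1, had a log2 fold change of -1.07 (edgeR adjusted p = 5.01e-08). ATF4, XBP1, ATF6 and ATF6B were named after their values were seen. ATF4 and XBP1 had log2 fold changes of -0.72 (edgeR adjusted p = 1.02e-06) and -0.46 (edgeR adjusted p = 7.24e-05). ATF6 had a smaller one of -0.22 (edgeR adjusted p = 0.0228), and ATF6B, with -0.06 (edgeR adjusted p = 0.534), did not pass the test. EIF2AK3, the gene of the sensor PERK, had 29.2 ± 1.59 and 33.3 ± 3.52 CPM (log2 fold change 0.19, edgeR adjusted p = 0.13), and 0.10 without hyperoside replicate 1 (adjusted p = 0.519). A wider KEGG list of protein processing in the ER was taken from the deposited annotation after the values were seen. Of its 167 genes 156 were tested, and 71 were called lower (45.5%) and 18 higher. Over all genes tested 23.2% were called lower and 22.1% higher. The KEGG list holds 7 of the 10 genes, and of its 149 other tested genes 66 were called lower and 17 higher.

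**Figure D4:**
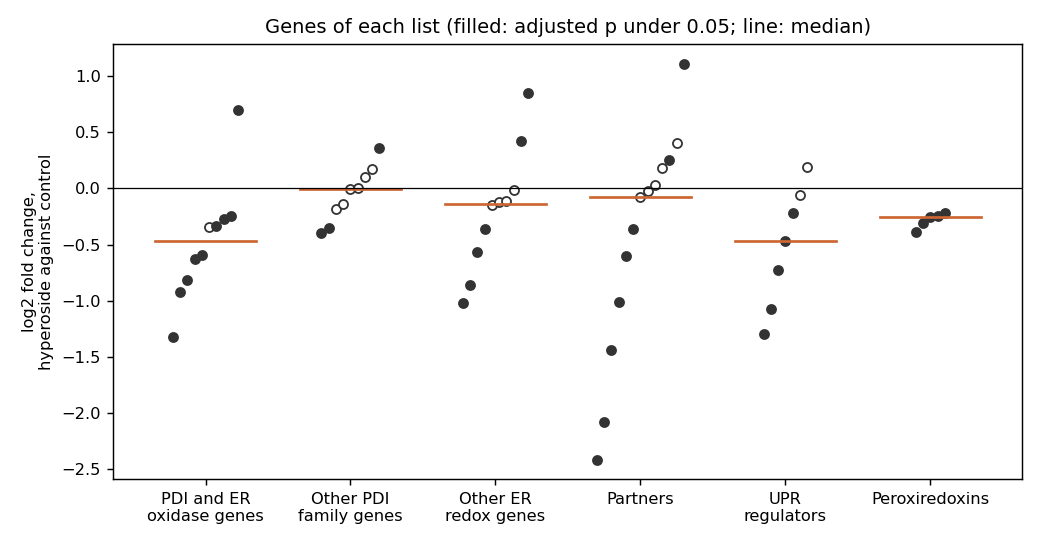
Log2 fold change of each tested gene (points) in the 10 PDI and ER oxidase genes and in the 5 further lists, with genes past an adjusted p of 0.05 filled, others open, and the median of each list as a line. The medians are -0.47 for the 10 genes, -0.01 for other PDI family genes, -0.13 for other ER redox genes, -0.08 for partners, -0.46 for UPR regulators and -0.25 for peroxiredoxins.

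For the genes whose levels followed these most closely, Pearson's r of log2 CPM over the 6 libraries was computed against 9292 other genes with a mean of at least 10 CPM. The libraries form 2 groups, so this r mainly repeats the group difference and is given as a description. ERO1A was closest to PPP1R3B (r = 0.9993, log2 fold change 1.04) and FYB1 (r = 0.9986, 1.0). ERO1B was closest to STARD4, the gene of a cholesterol carrier (r = 0.9993, log2 fold change -1.90), and TMEM41B (r = 0.9981, -1.21). PDIA3 was closest to SLC39A7, the gene of a zinc transporter of the early secretory pathway (r = 0.9999, log2 fold change -0.58), and TMED3, the gene of a cargo receptor between ER and Golgi (r = 0.9998, -0.72). For PDIA4 the closest were EXO1 (r = 0.9997) and SFXN1 (r = 0.9995), and for PDIA5 ICAM5 (r = 0.9997) and PCCB (r = 0.9991). Those of PDIA6 were PSMD10 (r = 0.9991) and YIPF2 (r = 0.9989), and those of P4HB RBM4B (r = 0.9961) and KIAA1191 (r = 0.9945). No shared theme was tested.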

How the data were processed

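RNA of K562 cells was analysed in 3 control and 3 hyperoside libraries, grouped by the sample labels. The submitters' processing notes list fastp, HISAT2 and HTSeq with the build hg38, and versions, annotation release and use of strand are not given in the sources used here. The authors deposited raw counts per gene, and also FPKM values, scaled to gene length and library total. Strand-blind counting could add reads of antisense genes, or lose reads of shared exon bases where reads over more than a single gene are set aside. Neither was tested. The count test was edgeR 4.0.16 (R 4.3.3) with filterByExpr (minimum count 10, minimum total 15), TMM factors (0.957 to 1.03), quasi-likelihood test with condition as the only term and Benjamini-Hochberg adjustment over 15095 genes. The study's DEG thresholds were kept (adjusted p under 0.05, fold change above 2), and the standard error is the log2 fold change divided by the root of F. The study names DESeq for its own test. Alternatives came from DESeq2 1.42.0, from limma 3.58.1, from other normalizations and filters, from a replicate block and from leaving out single libraries. Ratios used deposited FPKM values and two-sided exact permutation tests in scipy 1.17.1. Motifs were searched in RefSeq promoters, and exon overlap came from GENCODE 29. The model fits were tested on simulated data. The genes, lists and naming rule were chosen with earlier results of these data known. The rule names all 10 genes, the DEGs and the 2 genes of smallest p per direction of each list, and the closest genes by correlation. Replicates of a group differed by more than counting error (chi-square per degree of freedom 6.56 to 24.9), and limits from counts cover counting error only. The labels state no pairing, and none was assumed. Deviations of same-numbered libraries from their group means had r of -0.08, -0.03 and -0.03, which cannot settle whether they were paired. Some annotation columns were not used here.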

Additional observations from a re-analysis of the deposited data

How the results depend on the processing

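The calls of all 10 genes kept their direction and their side of the threshold in each of the 15 alternatives run for each gene, and the counts stayed at 8 lower and 1 higher, except that requiring a fold change above 2 left 1 lower and 0 higher. ERO1B moved most, to -0.86 in limma-trend on log2(FPKM + 1). P4HB came closest to losing its call, with an edgeR adjusted p of 0.049 without hyperoside replicate 1. The DEGs, 970 higher and 567 lower, became 208 and 136 in limma-trend on log2(FPKM + 1), where the added 1 shrinks low genes, and 3333 and 3508 by adjusted p alone. They were 864 to 1042 and 510 to 574 with a library left out. The replicate block gave 924 and 542 and changed no call of the 10 genes, while UPR regulators and peroxiredoxins called lower went from 5 to 4 each. The labels share replicate numbers only and state no pairing. Deviations of same-numbered libraries from their group means correlated at -0.08, -0.03 and -0.03, and no library correlated best with its own number. With 3 libraries in a group and the group means taken out, such values cannot settle whether libraries were paired. Other PDI family genes called higher numbered 2 with library totals only, upper-quartile factors and no filter, and 1 to 2 with a library left out. Partners called higher ranged from 1 to 3, and peroxiredoxins called lower from 3 to 5, with a library left out. TMX4 was called with library totals only (adjusted p = 0.0378) and upper-quartile factors (adjusted p = 0.0478). The ratio of TXNDC5 to P4HB changed sign to 0.0901 on FPKM + 1 and ranged from -0.32 to 0.10 with a library left out, and that of PRDX4 to P4HB from -0.14 to 0.0128, the latter without control replicate 1. The cause was not tested. With 3 libraries against 3 the exact tests cannot go below p = 0.1, and TXNDC5, with 38 to 76 counts in a library, has a fold change interval of -1.05 to 0.35, in which counting error and other spread between libraries were not separated. Its fold change ranged from -0.57 to -0.14 with a library left out.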
